A study of Mus musculus with 8 samples.

Results

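The genes described here are 9 genes of the epithelial to mesenchymal transition: Snai1, Snai2, Zeb1, Zeb2, Vim, Cdh2, Fn1, Mmp14 and Pmepa1. They were chosen by symbol, and all 9 were found among the 55401 genes of the count table. RNA was sequenced from 8 mouse libraries labelled as airway cells, all 10 days after tamoxifen. The 4 mutant libraries carried Scgb1a1cre and 2 floxed alleles of Cdh1 (Cdh1F/F), and the 4 control libraries carried Scgb1a1cre and 1 floxed allele (Cdh1F/+). Cdh1 encodes E-cadherin, the adhesion protein of epithelial junctions. Scgb1a1 encodes the main secreted protein of club cells, so the Cre is aimed at club cells. The cells in which it acted were not checked here, and the counts hold the RNA of every cell in the sample. By the series text, cells were depleted of leukocytes and endothelium, taken by EPCAM and sorted by GFP, and no label states which fraction was sequenced. Strain, age and sex are not given in the sources used here. Each library has a different number in its label, but no source says what the number means or whether each library is its own animal. The p-values therefore reflect variation among these 8 libraries, which may be technical.

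In the transition, epithelial cells lose their junctions and take on the shape and movement of mesenchymal cells. The zinc finger repressors of the Snail and Zeb families bind E-box sequences in the promoters of epithelial genes, Cdh1 among them, and transforming growth factor beta (TGF-beta) is a well-known inducer. Vimentin filaments, N-cadherin, fibronectin and the membrane protease MMP14 mark the mesenchymal state, which fibroblasts, smooth muscle, endothelium and macrophages of the lung partly share without any transition. The question is whether these genes follow the targeting of Cdh1.

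Total counts ran from 16981201 to 21673654 in the mutant libraries and from 15111663 to 20454930 in the controls. The control libraries did not lie together: on the first principal component, which held 48.8% of the variance, controls 1 and 4 stood at 4.1 and 9.8, controls 2 and 3 at 46.5 and 53.7, and the mutant libraries between -31.6 and -24.5. Club cell, alveolar, endothelial and myeloid markers were all abundant in both groups, so the label of airway cells covers a mix of lung cells. The targeted gene, Cdh1, had 406, 410, 402 and 396 counts scaled to library size (CPM) in mutants 1 to 4, against 322, 428, 388 and 395 CPM in controls 1 to 4. The mutant values lay inside the range of the controls, with a log2 fold change of 0.07 ± 0.09 (SE) and an edgeR adjusted p of 0.648. A count over the whole gene offers no check of the labels. RNA without the floxed exons would still be counted if it persists, and cells in which the Cre does not act may add Cdh1 RNA. The controls carry a floxed allele too. The part of each in the level of Cdh1 was not tested.

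Of the 9 genes, 3 rose in mutant libraries, namely Fn1, Mmp14 and Pmepa1, 1 fell, namely Zeb1, and 5 were not called: Snai1, Snai2, Zeb2, Vim and Cdh2. A gene was called when its p by edgeR's quasi-likelihood test, adjusted by the Benjamini-Hochberg method over all 16964 genes tested, was under 0.05. All 9 passed the filter on low counts. The 4 called genes were 44.4% of the 9, against 7.81% of all genes tested, with 5.45% of all genes higher and 2.36% lower. The 9 were chosen with earlier results of these data known, so this share is a description. The groups did not overlap for the same 4 genes, and for 16.8% of all genes tested, with the mutants above in 9.75% and below in 7.07%. The median log2 fold change was 0.08 over the 9 genes and -0.01 over all genes tested. In these bulk libraries fewer cells of a type and less RNA per cell cannot be told apart.

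**Figure D1:**
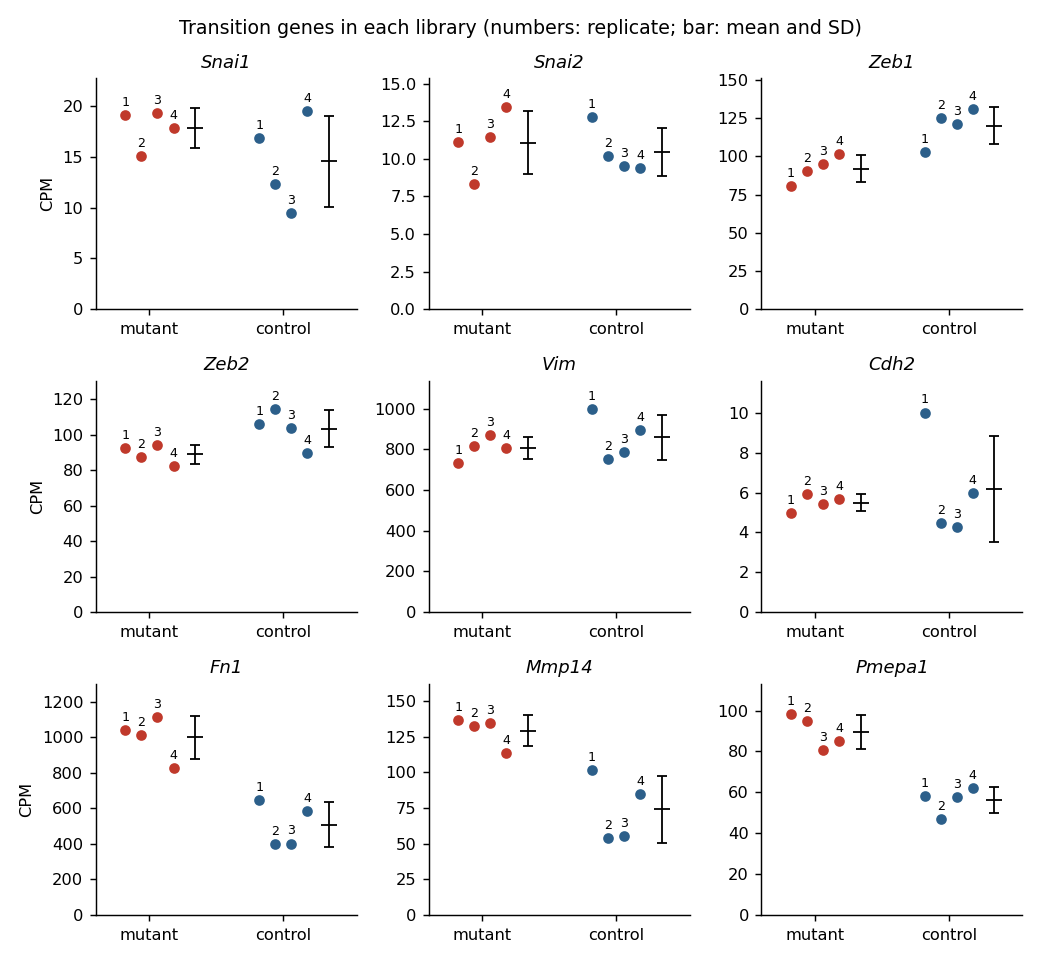
CPM of each transition gene in each library, with mutant libraries in red on the left, control libraries in blue on the right, the replicate number above each point and the mean with its SD beside each group. The mutant points of Fn1, Mmp14 and Pmepa1 all lie above the control points, those of Zeb1 all lie below, and the remaining genes overlap.

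Among the transcription factors, Snai1 encodes Snail, a repressor that binds E-boxes. The 250 bases before its start in RefSeq (GRCm38.p6, plus strand, chr2:167537945-167538194) are shown because they hold such a box, the kind of site to which Snail and the Zeb factors bind. Capitals mark the box, which reads CACCTG here and CAGGTG on the other strand and starts 126 bases before the start.
Snai1: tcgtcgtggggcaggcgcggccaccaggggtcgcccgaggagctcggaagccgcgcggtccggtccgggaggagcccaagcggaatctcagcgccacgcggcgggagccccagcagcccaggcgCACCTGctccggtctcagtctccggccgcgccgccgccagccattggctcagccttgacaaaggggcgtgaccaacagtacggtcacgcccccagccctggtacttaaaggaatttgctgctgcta
The same box, on either strand, was present in 17.2% of 32851 promoter windows of this length.

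Snai1 had 19.1, 15.1, 19.3 and 17.8 CPM in mutants 1 to 4, against 16.8, 12.3, 9.46 and 19.5 CPM in controls 1 to 4. Controls 1 and 4 stood within or above the mutant range, and controls 2 and 3 below it. The ratio of mutant to control was 1.22, with a 95% interval from 0.889 to 1.68 and an edgeR adjusted p of 0.407. The value moved with the choice of controls. Without controls 1 and 4 the log2 fold change was 0.71 with an edgeR adjusted p of 0.00266, and without controls 2 and 3 it was -0.03 with an edgeR adjusted p of 0.942.

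Snai2 encodes Slug, the close relative of Snail. It had 11.1, 8.34, 11.4 and 13.5 CPM in mutants 1 to 4, against 12.8, 10.2, 9.52 and 9.38 CPM in controls 1 to 4. All the controls lay inside the range of the mutants. The ratio was 1.06, with a 95% interval from 0.82 to 1.36 and an edgeR adjusted p of 0.783.

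Zeb1, a zinc finger and homeodomain repressor of epithelial genes, had 80.4, 90.5, 94.9 and 101 CPM in mutants 1 to 4, against 103, 125, 121 and 131 CPM in controls 1 to 4. Each mutant library was below each control, by a narrow margin between mutant 4 and control 1. Zeb1 fell 1.31-fold, with a log2 fold change of -0.39 ± 0.10 (SE) and an edgeR adjusted p of 0.0405. The call was lost when control 2, 3 or 4 or mutant 1, 2 or 3 was left out (edgeR adjusted p from 0.0569 to 0.119), without controls 2 and 3 together (0.142) and with scaling by library size alone (0.0593). Strand was not used in the counting, and an antisense gene, Gm10125, which lies over Zeb1, took 449 counts over the 8 libraries against 15563 for Zeb1.

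Zeb2, the paralog of Zeb1, had 92.3, 87.6, 94.1 and 82.2 CPM in mutants 1 to 4, against 106, 115, 104 and 89.4 CPM in controls 1 to 4. Only control 4 lay within the mutant range. The ratio was 0.861, with a 95% interval from 0.754 to 0.983, and the edgeR adjusted p of 0.152 did not pass. The call appeared when control 4 was left out (edgeR adjusted p of 0.0413) and without controls 1 and 4 (0.00665). The antisense gene Zeb2os overlaps Zeb2 and took 201 counts, against 14079 for Zeb2.

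Zeb1 and Zeb2 are also expressed in endothelial cells. Of 20 endothelial markers 7 fell, among them Mmrn2, Erg and Tek, the other 13 were not called, and the median log2 fold change was -0.36. Their summed level was 6927 to 7332 CPM in mutants, against 7957 to 10200 CPM in controls, and all 20 had counts in every library. The count that fell was 1 without mutant 1 or 2, 2 without mutant 4 or control 2, 3 without mutant 3 or control 3, and 12 without control 1. It was 12 with DESeq2, 13 with the GC trend removed, 14 without controls 1 and 4 and 2 without controls 2 and 3. In the same libraries, of 17 fibroblast markers 2 rose and 0 fell, and of 22 myeloid markers 4 rose and 0 fell. Of 17 smooth muscle and pericyte markers 0 rose and 3 fell. The part of any of these cell types in the values of Zeb1 and Zeb2 was not tested.

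Among the structural genes, Vim encodes the intermediate filament vimentin. It had 734, 818, 868 and 808 CPM in mutants 1 to 4, against 999.2, 753, 787 and 896 CPM in controls 1 to 4. The mutant libraries lay low within and just under the control range. The ratio was 0.940, with a 95% interval from 0.799 to 1.11 and an edgeR adjusted p of 0.626.

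Cdh2 encodes N-cadherin, the cadherin that replaces E-cadherin in a full transition and that heart muscle uses at its junctions. It was scarce, with 4.95, 5.94, 5.43 and 5.66 CPM in mutants 1 to 4, against 10.0, 4.48, 4.29 and 5.99 CPM in controls 1 to 4. Control 1 stood apart from the others. The log2 fold change was 0.16 when it was left out and -0.18 when it was kept (edgeR adjusted p of 0.547 and 0.696). The 95% interval of the ratio over all libraries ran from 0.592 to 1.32. Cardiac muscle markers, known in the mouse lung from the muscle around the pulmonary veins, were also highest in control 1: their summed level was 645, 693, 442 and 503 CPM in mutants 1 to 4, against 1477, 877, 874 and 1082 CPM in controls 1 to 4. Of these 14 markers 8 fell, with a median log2 fold change of -0.90, and 5 fell without mutant 3 and 4 without mutant 4. The parallel with Cdh2 rests on control 1. Controls 2 and 3 had the lowest Cdh2 of all libraries (4.48 and 4.29 CPM), and their cardiac sums were 877 and 874 CPM, above those of every mutant. The part of the cardiac muscle markers in the level of Cdh2 was not tested.

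Fn1 encodes fibronectin, an extracellular matrix protein to which integrins bind. It had 1043, 1012, 1118 and 827 CPM in mutants 1 to 4, against 649, 398, 402 and 588 CPM in controls 1 to 4. Each mutant library was above each control, and controls 1 and 4 were nearer to the mutants than controls 2 and 3. Fn1 averaged 1000 ± 124 CPM in mutants and 509 ± 129 CPM in controls (SD, n = 4 each). It rose 1.96-fold, with a 95% interval from 1.496 to 2.58, a log2 fold change of 0.97 ± 0.18 (SE) and an edgeR adjusted p of 0.00940. This was the largest change among the 9 genes. When any 1 library was left out, Fn1 stayed called, with log2 fold changes from 0.87 to 1.11 and edgeR adjusted p from 0.00334 to 0.0366. The size moved with the choice of controls: the log2 fold change was 0.69 without controls 2 and 3 and 1.32 without controls 1 and 4, called in each case.

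Mmp14 encodes a membrane-anchored metalloproteinase that cleaves collagen and activates the soluble protease MMP2. The 250 bases before its RefSeq start (GRCm38.p6, plus strand, chr14:54431348-54431597) are given because Mmp14 is the member that rose and has an entry in the promoter table. Capitals mark a pair of adjacent GC boxes (GGGCGG, or CCGCCC on the other strand), which start 19 and 13 bases before the start.
Mmp14: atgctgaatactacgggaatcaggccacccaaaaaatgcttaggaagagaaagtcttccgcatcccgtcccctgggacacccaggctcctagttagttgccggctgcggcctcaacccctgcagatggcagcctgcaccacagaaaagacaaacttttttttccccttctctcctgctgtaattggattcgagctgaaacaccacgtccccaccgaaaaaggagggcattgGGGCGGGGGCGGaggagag
The GC box was present in 32.7% of the promoter windows of this length. The E-box CAGGTG, an AP-1 site (TGANTCA), a SMAD site (GTCTAGAC) and a TEAD site (CATTCC) were searched on both strands and did not occur in this window. They occurred in 17.2%, 6.75%, 0.167% and 12.6% of all windows.

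Mmp14 had 136, 133, 135 and 113 CPM in mutants 1 to 4, against 102, 53.9, 55.3 and 84.9 CPM in controls 1 to 4. Each mutant library was above each control, with mutant 4 and control 1 the closest. Mmp14 rose 1.74-fold, with a 95% interval from 1.29 to 2.37, a log2 fold change of 0.80 ± 0.20 (SE) and an edgeR adjusted p of 0.0379. The call was lost when control 2 or 3 or any of the mutants was left out (edgeR adjusted p from 0.0683 to 0.110) and with no filter on low counts (0.139). The log2 fold change was 0.47 without controls 2 and 3 and 1.24 without controls 1 and 4, called in each case.

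Pmepa1 encodes a membrane protein that TGF-beta induces and that binds receptor-regulated SMAD proteins and dampens the signal. It had 98.2, 95.1, 80.4 and 85.1 CPM in mutants 1 to 4, against 58.3, 47.0, 57.6 and 62.2 CPM in controls 1 to 4. The groups were far apart relative to their spread, and controls 1 and 4 did not stand out from controls 2 and 3. Pmepa1 averaged 89.7 ± 8.34 CPM in mutants and 56.2 ± 6.50 CPM in controls (SD, n = 4 each). It rose 1.59-fold, with a 95% interval from 1.36 to 1.86, a log2 fold change of 0.67 ± 0.10 (SE) and an edgeR adjusted p of 0.00382, the lowest among the 9 genes. It stayed called in all 18 alternative settings, with log2 fold changes from 0.58 to 0.77.

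**Figure D2:**
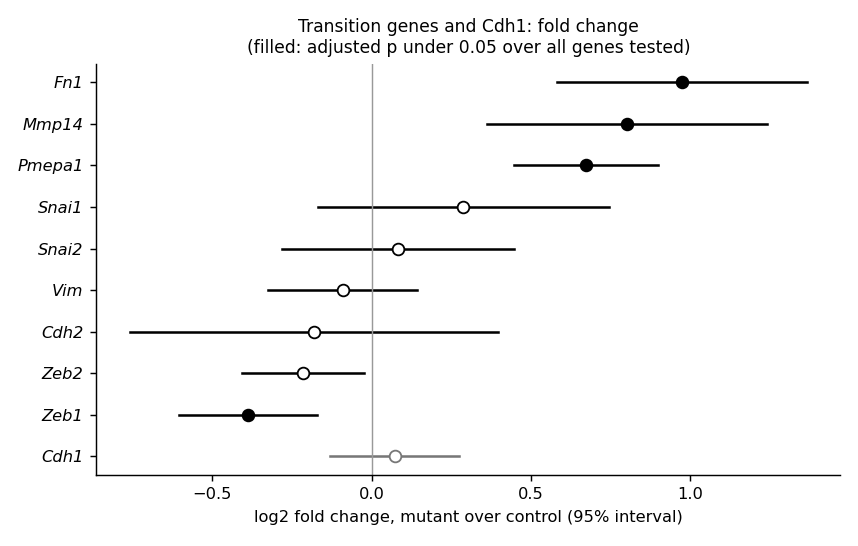
Log2 fold change of mutant over control libraries for the 9 transition genes, in order of size, and for Cdh1 at the foot, with 95% intervals as lines and filled points where the adjusted p was under 0.05. Fn1 (0.97), Mmp14 (0.80) and Pmepa1 (0.67) lie right of 0 and Zeb1 (-0.39) left of it. Zeb2 is open although its interval ends at -0.02.

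Fibroblasts and macrophages make fibronectin and MMP14 in the lung. Of 17 fibroblast markers Mfap4 and Col3a1 rose, the other 15 were not called, and the median log2 fold change was -0.15. Their summed level was 7338 to 7832 CPM in mutants, inside the 6237 to 8487 CPM of the controls. Of 22 myeloid markers 4 rose, namely Mrc1, Cd14, Chil3 and Cd68, and the other 18 were not called. The median log2 fold change of the 22 was 0.22, with -0.21 without controls 2 and 3 and 0.65 without controls 1 and 4. The summed myeloid level was 6600 to 8897 CPM in mutants, against 6262 to 8184 CPM in controls. Lyz2, with a log2 fold change of -0.06, was by far the most abundant of the 22 per length of gene, so the sum leans on it. All fibroblast and myeloid markers had counts in every library. With any 1 mutant left out, or without control 2 or 3, no fibroblast marker was called higher, and without mutant 4, 1 fell. Without control 4, 4 fibroblast markers rose. Without control 1, 2 rose and 4 fell, and 7 myeloid markers rose. Without controls 1 and 4, 5 fibroblast markers rose and 4 fell, and 14 myeloid markers rose. Their part in the rise of Fn1 and Mmp14 was not tested.

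On a scale that also divides by the length of the merged exons (FPKM), Vim was the most abundant of the 9 genes in both groups, at 170 ± 11.6 FPKM in mutants and 181 ± 23.6 FPKM in controls (SD, n = 4 each). Fn1 came next, at 85.6 ± 10.6 FPKM in mutants and 43.6 ± 11.01 FPKM in controls, against 88.2 ± 1.33 and 83.8 ± 9.77 FPKM for Cdh1 itself. In mutants the order then ran through Mmp14 (21.7 FPKM), Pmepa1 (18.3), Snai1 (10.98), Zeb1 (8.94), Snai2 (5.48) and Zeb2 (4.41) to Cdh2 (0.682). In controls Mmp14 (12.4), Zeb1 (11.7), Pmepa1 (11.5) and Snai1 (8.97) followed Fn1, then Snai2 (5.18), Zeb2 (5.12) and Cdh2 (0.768). Neighbours whose library ranges overlapped were Mmp14 and Pmepa1, Snai1 and Zeb1, and Snai2 and Zeb2 in mutants. In controls the ranges of Mmp14, Zeb1, Pmepa1 and Snai1 overlapped, as did those of Snai1 and Snai2 and of Snai2 and Zeb2.

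**Figure D3:**
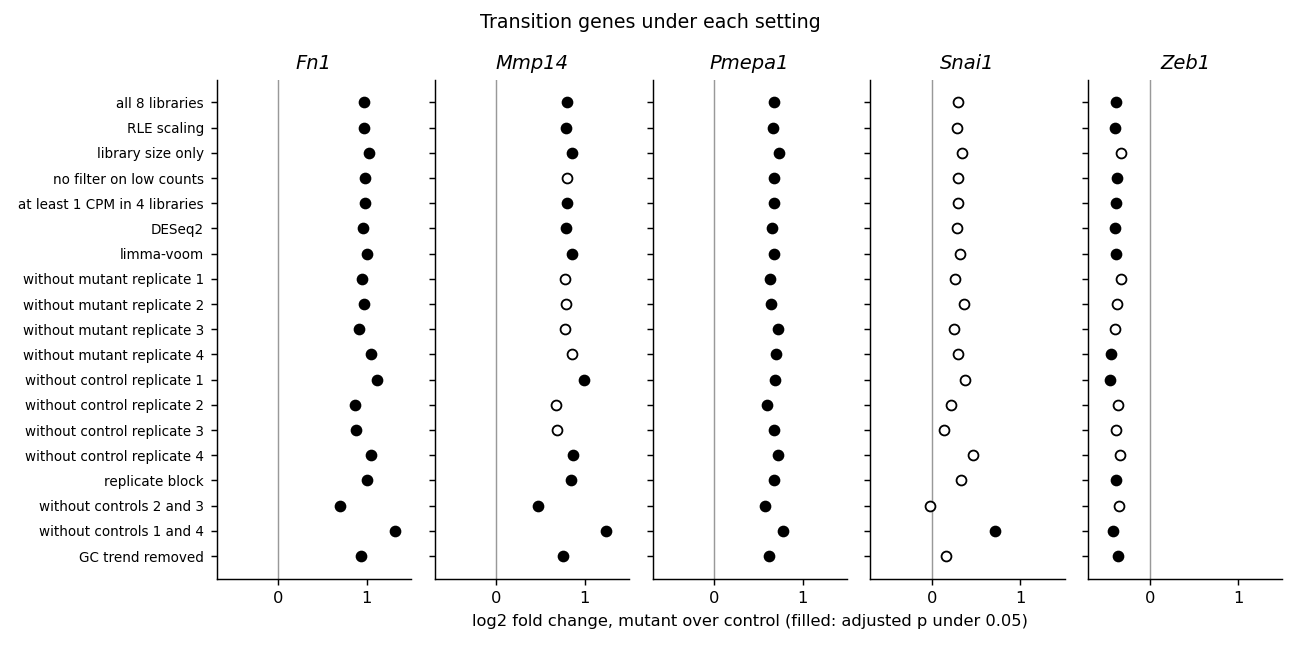
Log2 fold change of mutant over control libraries for Fn1, Mmp14, Pmepa1, Snai1 and Zeb1 under the main setting with all 8 libraries and under 18 alternatives, one row each, with filled points where the adjusted p was under 0.05. Fn1 and Pmepa1 are filled in every row, Mmp14 and Zeb1 lose the call in several, and Snai1 moves from -0.03 without controls 2 and 3 to 0.71 without controls 1 and 4.

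The other genes of the transition were counted from lists. For comparison, 7.81% of all genes tested were called, 5.45% higher and 2.36% lower. Of 42 epithelial genes that a transition is known to lower, Cdh1 among them, 19 rose, 1 fell and 22 were not called. The median log2 fold change was 0.31. Cldn4, a claudin of tight junctions, rose 12.8-fold, to 82.8 ± 10.9 CPM in mutants against 6.53 ± 1.88 CPM in controls (SD, n = 4 each). Elf3, an epithelial transcription factor, rose 2.79-fold, and the matriptase gene St14 and the claudin gene Cldn7 rose 1.83-fold and 1.79-fold (edgeR adjusted p from 8.01e-06 to 0.000642 for these 4 genes). Epcam rose 1.53-fold, the keratin genes Krt8, Krt18 and Krt19 rose 2.02-fold, 2.09-fold and 2.14-fold, and Esrp1, which keeps the epithelial splice forms, rose 1.39-fold. Grhl1, an epithelial transcription factor, was the 1 that fell, by 1.51-fold, with an edgeR adjusted p of 0.0406. Not all the list went up. The mutants lay above each control for 19 of the 42 genes and below each control for 3, against 9.75% and 7.07% of all genes tested. At an unadjusted edgeR p under 0.05, 22 were higher and 5 lower. The count that rose was 12 without mutant 1 or 2, and 13 to 19 without any other library. Without control 1, 4 genes fell, without control 4, 3 fell, and without any other library Grhl1 lost its call. Without controls 1 and 4, 22 rose and 7 fell.

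Of 18 other transition transcription factors that passed the filter, out of 22 listed, Foxq1 rose 2.53-fold, to 10.2 ± 1.23 CPM in mutants against 4.01 ± 0.387 CPM in controls (SD, n = 4 each). The other 17 were not called, so the share called was near the 7.81% of all genes tested. Twist1 did not pass the filter, with 0.168 to 0.273 CPM in mutants and 0.0512 to 0.193 CPM in controls. Without control 1, 3 rose and 2 fell, and without controls 1 and 4, 5 rose and 3 fell. The edgeR adjusted p of Foxq1, a forkhead factor also active in secretory epithelium, was 0.000462.

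Of 38 other mesenchymal and matrix genes 6 rose, 32 were not called, and the median log2 fold change was 0.20. The calcium-binding protein gene S100a6 rose 1.68-fold, the syndecan gene Sdc1 1.30-fold, the collagen genes Col5a2 and Col3a1 1.42-fold and 1.63-fold, the versican gene Vcan 1.63-fold and the hyaluronan receptor gene Cd44 1.31-fold (edgeR adjusted p from 0.00987 to 0.0404). Sdc1 and Cd44 are also made by epithelial cells. The groups overlapped for Vcan and Col3a1. The count of genes that rose was 1 without control 3 or without mutant 1, 2 or 3, 2 without control 2, 3 without mutant 4, 14 without control 4, 1 without controls 2 and 3 together and 20 without controls 1 and 4. In that last setting 4 genes of the list fell. Col1a1 stood at 473 ± 47.9 CPM in mutants and 252 ± 156 CPM in controls and was not called (edgeR adjusted p of 0.171).

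Genes of TGF-beta signalling were called in both directions. Of 23 ligand, activation and receptor genes, Gdf15 and Itgb6 rose and Acvrl1 and Bambi fell. Gdf15, a stress-induced member of the ligand family, rose 3.67-fold, and Itgb6, whose integrin frees TGF-beta from its latent complex, rose 2.09-fold. Acvrl1, a receptor of endothelial cells, fell 1.38-fold, and Bambi, a decoy receptor, fell 1.497-fold. These had edgeR adjusted p from 0.0119 to 0.0180. Without control 1, 4 of this list rose and 3 fell, 1 fell without control 2 or mutant 1, 2 or 3, and 0 rose and 2 fell without controls 2 and 3. Without controls 1 and 4, 12 rose and 4 fell. Tgfb1, the main ligand, stood at 62.4 ± 5.28 CPM in mutants and 49.2 ± 29.1 CPM in controls, with a 95% interval of the ratio from 0.723 to 2.21. Of 17 SMAD transducers and inhibitors the repressor gene Tgif1 rose 1.84-fold, and the inhibitor Smad6, the ubiquitin ligase Smurf2 and the SMAD anchor Zfyve9 fell 1.70-fold, 1.47-fold and 1.26-fold (edgeR adjusted p from 0.00119 to 0.0438). The calls of the genes that fell were lost without mutant 1, 3 or 4 or control 2 or 3, 1 gene of the list fell without mutant 2, 5 fell without control 4, and 8 fell without controls 1 and 4. Smad7, the feedback inhibitor, had a ratio of 0.779 and was not called (edgeR adjusted p of 0.0668).

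Of 23 TGF-beta target genes, with a median log2 fold change of 0.03, Tgif1 and Itgb6 rose and 21 were not called. The share called was near the 7.81% of all genes tested. Ccn2, a matricellular protein gene among these targets, had a ratio of 1.02 with a 95% interval from 0.863 to 1.20. The interval of Pmepa1, from 1.36 to 1.86, lay above that of Ccn2. It overlapped those of the targets Tgif1 (1.56 to 2.17) and Itgb6 (1.52 to 2.87). The differences between these genes were not tested. Without control 1, 7 targets rose and 3 fell, without control 4, 3 rose and 3 fell, and without controls 1 and 4, 9 rose and 4 fell.

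Of 19 matrix metalloproteinases and inhibitors tested beside Mmp14, out of 23 listed, the neutrophil collagenase gene Mmp8 rose 2.15-fold and Mmp23 rose 1.88-fold, and 17 were not called (edgeR adjusted p of 0.00159 and 0.00203). The share called was near the 7.81% of all genes tested. Without control 1, 4 rose and 1 fell, without control 4, 4 rose and 2 fell, and without controls 1 and 4, 7 rose and 5 fell. Reck, an inhibitor of MMP14, had a ratio of 0.677 without overlap between the groups, and its edgeR adjusted p of 0.0649 did not pass. Timp1 stood at 43.5 ± 24.2 CPM in mutants and 16.1 ± 13.6 CPM in controls (edgeR adjusted p of 0.135).

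**Figure D4:**
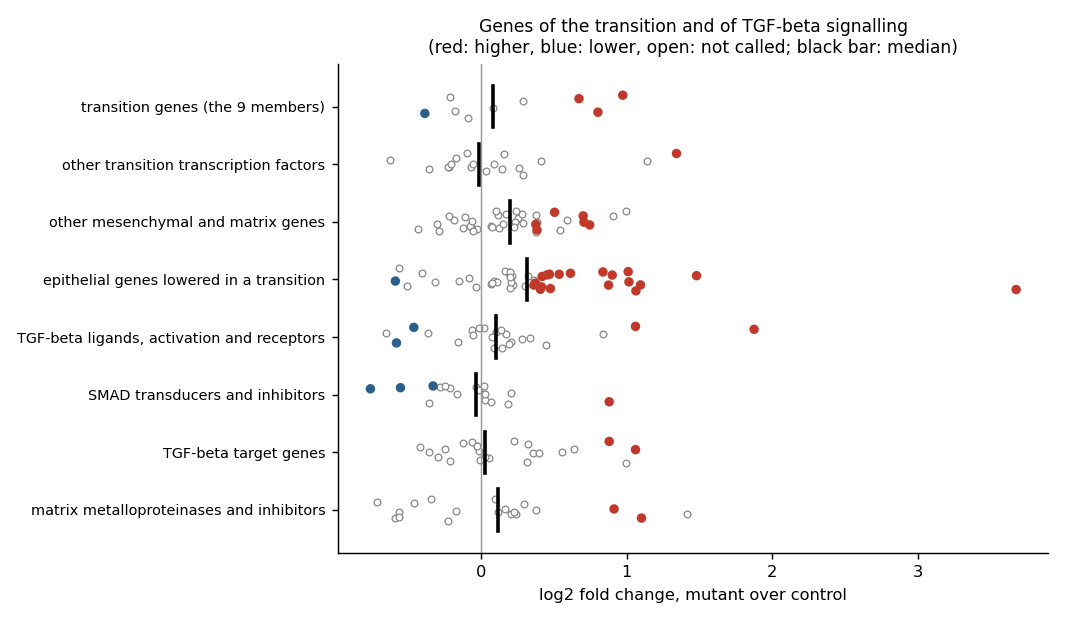
Log2 fold change of mutant over control libraries for each tested gene of the transition and TGF-beta lists, with 1 point per gene, red for higher, blue for lower, open for not called and a black bar at the list median. The epithelial list, the largest shown with 42 genes, holds more called genes than any other list shown. Of these 19 lie to the right of 0, with Cldn4 at 3.68 as the outermost point.

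Markers of other cell types differed between the same libraries. Of 9 general epithelial markers, some of them also in the epithelial list above, 6 rose, with summed levels of 2023 to 2250 CPM in mutants, against 1133 to 1491 CPM in controls. Of 17 smooth muscle and pericyte markers 3 fell, Des, Cnn1 and Rgs5, with sums of 958 to 1153 CPM in mutants and 995 to 1400 CPM in controls, and these calls were lost without mutant 3 or 4 or control 3 and fell to 1 without mutant 2 or control 2. Club cell markers fell in 7 of 12 and rose in 1, with sums of 8855 to 11142 CPM in mutants and 25465 to 28031 CPM in controls, and 6 of 14 ciliated markers rose. Alveolar markers gave 1 higher and 1 lower of 15, and neural and neuroendocrine markers 2 higher and 1 lower of 10 tested. Of 9 mesothelial and 16 lymphoid markers 0 were called by edgeR, with 1 mesothelial and 0 lymphoid markers at an unadjusted p under 0.05, and 0 were called by DESeq2 or limma-voom. Without control 1, 3 mesothelial markers fell.

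**Figure D5:**
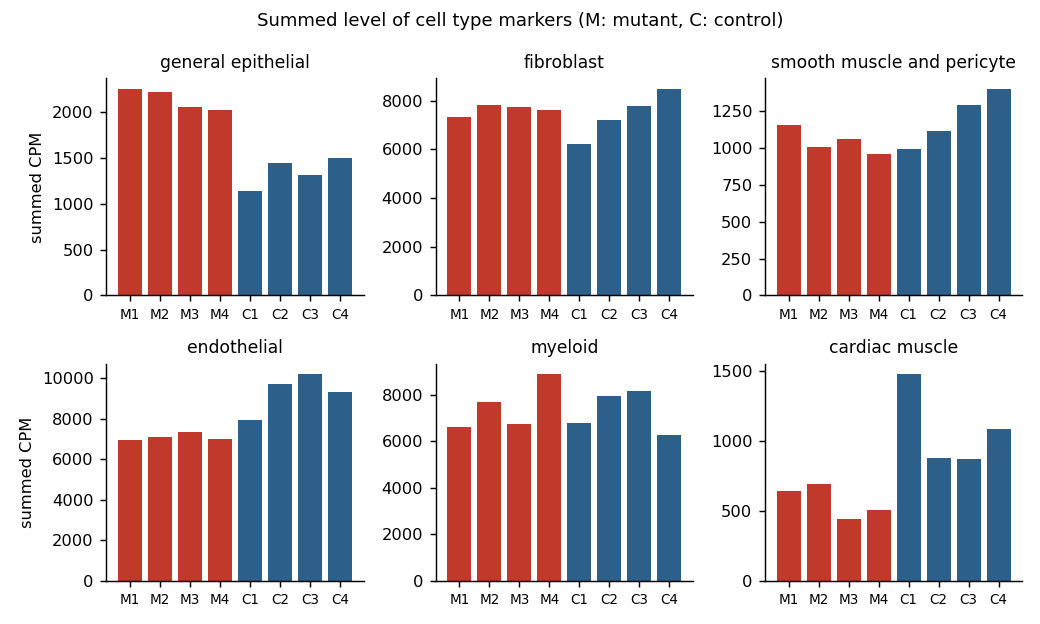
Summed CPM of 6 marker lists in each library, mutant libraries (M1 to M4, red) left and control libraries (C1 to C4, blue) right, with bars starting at 0. Epithelial sums are higher and endothelial and cardiac sums lower in every mutant library than in every control, fibroblast and myeloid sums overlap, and the cardiac sum is highest in C1.

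The genes whose pattern over the 8 libraries was most like that of each called member were found among 13298 genes by the root-mean-square difference of centred log2 CPM, which is 0 for equal patterns. For Fn1, which itself varied by 0.56 around its mean on this scale, they were Trim46 (0.085), Mmp14 (0.104) and Cks2 (0.118). For Mmp14 they were Ckap4, Apobec3 and Arhgef39 (0.085 to 0.099, against 0.516 for its own variation). Genes near Pmepa1 on this measure were Entpd3 (0.089) and Cstb (0.106), against 0.364 for its own variation. Zeb1 was most like Lrch1, Raver2 and Zfp641 (0.048 to 0.057, against 0.231). These are distances over 8 libraries of 2 groups, so genes with a similar fold change come out as alike.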

How the data were processed

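Airway cell RNA of 4 mutant and 4 control mouse libraries was analysed from 1 table of raw counts. These are raw fragment counts per gene, made by the authors with featureCounts 1.6.2 in paired mode and without a strand option, per the file headers, from STAR alignments to GRCm38 with GENCODE M25, and the deposited counts are not normalized. The submitters' processing notes also name Bowtie2 and Cufflinks. Gene lengths are those of the deposited table. Symbols came from GENCODE M21 on the same build and matched 99.53% of 55401 identifiers. Gene positions are as deposited, and promoter sequences are from RefSeq (GRCm38.p6), which held Snai1, Zeb2, Vim and Mmp14 of the 9 genes.

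Low genes were removed by filterByExpr at a minimum count of 10 and a total of 15, and the rest were scaled with TMM and tested with edgeR 4.0.16 (robust quasi-likelihood fit, group as the only term, Benjamini-Hochberg over 16964 genes, threshold 0.05) in R 4.3.3. The script was tested on simulated data. Each SE and 95% interval follows from the size of the fold change and its F statistic. CPM and FPKM use the TMM-scaled library sizes. A count of 0 allows up to 3 counts, or 0.138 to 0.199 CPM, which covers counting error only. No library was a copy of another: same-group libraries differed with a chi-square of 4.88 to 45.58 per gene.

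Alternatives were RLE scaling, library size alone, other filters, DESeq2 1.42.0, limma-voom (limma 3.58.1), each library left out, a replicate block, pairs of controls left out, and removal of each library's GC trend. Genes named are Cdh1, the 9 genes, up to 4 called genes per list with the lowest adjusted p and the 3 most like genes, and some genes under this rule are not reported here. Genes named beyond that rule (Col3a1 and Cd44 of the matrix list, Lyz2, Epcam, the keratin genes, Esrp1, Grhl1, Tgfb1, Smad7, Ccn2, Col1a1, Timp1, Reck and Twist1) were chosen after their values were seen. The members, lists and pairs of controls were chosen with earlier results of these data known. One listed symbol, Pals1, was found as Mpp5 through its RefSeq synonym.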

Additional observations from a re-analysis of the deposited data

Results flagged for a closer look

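In each group of 4 libraries, over 77 named genes and 154 groups of values, a library was listed when its gap to the nearest other library, as a share of the range of its group, exceeded Dixon's 95% critical value. This held in 6 groups, and chance gives about 1 in 20. Mmp14 stood at 113.3 CPM in mutant 4, below the other mutants at 133 to 136 CPM and still above each control. Bambi stood at 28.3 CPM in mutant 4, against 22.2 to 23.1 CPM in the other mutants. Chil3 stood at 806.7 CPM in mutant 1, against 575 to 612 CPM in the other mutants. Zfyve9 stood at 55.93 CPM in control 2, against 46.8 to 47.3 CPM in the other controls. Timp1 stood at 36.47 CPM in control 1, against 8.33 to 9.99 CPM in the other controls. Twist1 stood at 0.2726 CPM in mutant 2, against 0.168 to 0.181 CPM in the other mutants, which is near the level that a count of 0 allows.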

How the results depend on the processing

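Fn1 and Pmepa1 were called higher in all 18 alternatives, and Mmp14 and Zeb1 kept their direction in all 18 while losing the call in those named above. With 1 library left out, 515 to 1517 genes rose and 146 to 1117 fell, against 924 and 401 with all libraries, and 2 to 3 of the 9 genes rose and 0 to 1 fell. Without controls 1 and 4, 3750 genes rose and 3338 fell, with 4 and 2 of the 9. Without controls 2 and 3, 223 genes fell, and with DESeq2 886 fell. None of the 9 fell with library size alone or without controls 2 and 3, a count of 0 in each case. The log2 fold change turned sign for Snai1 without controls 2 and 3 (-0.0268), Snai2 without mutant 4 (-0.0275, in a range of -0.0275 to 0.1981 over single libraries left out), Vim without controls 1 and 4 (0.0651), Cdh2 without control 1 (0.1572, in a range of -0.3234 to 0.1572) or without controls 1 and 4 (0.3253), and Cdh1 without control 1 (-0.0002) or without controls 1 and 4 (-0.0202), none of them called. The cause was not tested. The share of called genes that were higher was 69.7%, against 59.5% with DESeq2, 57.6% without control 1, 52.9% without controls 1 and 4 and 78.4% with library size alone.

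With the replicate number as a block, 865 genes rose and 371 fell, as did 3 and 1 of the 9, and no call among the 9 changed. The correlation of deviations between libraries of the same number was 0.007, 0.129, -0.123 and 0.134. Between libraries of different numbers it ran from -0.145 to 0.149. The numbers thus showed no sign of pairing, but so few values cannot exclude a shared litter, day or batch. Depth limits Twist1, which had 1 to 5 counts a library.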
